A study of Mus musculus with 2 samples.

Results

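Most microRNAs (miRNAs) are cut from a long transcript in 2 steps, by Drosha in the nucleus and by Dicer in the cytoplasm. The genes described here are known for, or were annotated with, another origin: 7 were listed, 6 of them had a row among the 1973 counted miRNA genes, and 5 averaged at least 10 counts over both libraries. They were listed by name for their origin, and the rule uses no measured value. Mir320 and Mir484 stand for capped hairpins, Mir877 and Mir1224 for mirtrons, and Mir1983, Mir1839 and Mir6236 for hairpins that resemble or overlap a tRNA, a snoRNA-type RNA or an rRNA.

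Capped hairpins are made directly by RNA polymerase II, so that the start of the transcript is the start of the hairpin and Drosha is not needed. Mirtrons are short introns that the spliceosome cuts out and that fold into a hairpin fit for Dicer. Small RNAs of miRNA size can also come from tRNA, snoRNA or rRNA transcripts, and some of these have been named as miRNAs.

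The data were 2 microRNA-seq libraries from mouse forebrain at embryonic day 10.5, from mixed-sex embryos of strain B6NCrl, and the labels name no mutation or treatment. Replicate 1 was a pool of 69 embryos and replicate 2 a pool of 51 embryos, and the labels call them biological replicates. Both form 1 group, so the comparison available was between the libraries. Replicate 1 held 3256070 counts and replicate 2 held 3574530 counts on the strand of the miRNA genes, and CPM (counts per 1000000 counts) below are scaled to these totals.

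The mature miRNAs show what these genes can make. They are given 5′ to 3′ in lower case with the seed (bases 2 to 8, which pair with target RNAs) in capitals, from the RefSeq table for build GRCm38.p6, in which 6 of the 7 genes had a mature sequence and 5 a hairpin.
miR-484: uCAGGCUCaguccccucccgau
miR-877-5p: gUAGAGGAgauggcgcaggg
miR-877-3p: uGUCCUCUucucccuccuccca
miR-1224-5p: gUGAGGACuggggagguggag
miR-1224-3p: cCCCACCUcuucucuccucag
miR-1983: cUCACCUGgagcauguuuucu
miR-1839-5p: aAGGUAGAuagaacaggucuug
miR-6236: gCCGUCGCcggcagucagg
Apart from miR-1983, these seeds were found in no other gene of the table. The seed of miR-1983 was also that of miR-412-3p, whose gene Mir412 had 721 counts in replicate 1 and 836 counts in replicate 2. Of the 1738 mature sequences in the table, 68.0% had a seed that no other gene had. The base content of miR-6236 stood near the top of the table, with 78.9% G and C against a median of 52.2%.

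By the annotation the hairpin of each mirtron is exactly an intron. Both hairpins are printed here with the first 2 and last 2 bases of the intron in capitals.
Mir877: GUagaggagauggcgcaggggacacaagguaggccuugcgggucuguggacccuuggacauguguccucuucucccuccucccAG
Mir1224: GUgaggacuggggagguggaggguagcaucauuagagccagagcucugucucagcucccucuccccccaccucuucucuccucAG
Both began with GU and ended with AG, the letters at the ends of most introns. The same pair of ends was found in 30 of 1005 hairpins of the table (2.99%). Of these 30, 15 were not exact introns of counted genes by the annotation. In the last 20 bases, where introns carry a run of pyrimidines, C and U made up 90% in Mir877 and 85% in Mir1224, against a median of 55% over the table. Mir1983, which is no annotated intron, also had 90%, while Mir1839 had 65% and Mir484 had 40%.

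The 5 hairpins with a sequence differed in base content and in how tightly they fold. G and C made up 61.2% of Mir877, 60.0% of Mir1224, 58.2% of Mir484 and 53.8% of Mir1983, all above the median of 51.7% over the 1005 hairpins, and 37.0% of Mir1839. The predicted folding energy (RNAfold, kcal/mol per base, more negative for a more stable fold) was -0.50 for Mir1224, -0.43 for Mir877, -0.40 for Mir1983, -0.37 for Mir484 and -0.30 for Mir1839, against a median of -0.41. Both mirtrons were thus on the stable side of the median and the other 3 on the less stable side.

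**Figure D1:**
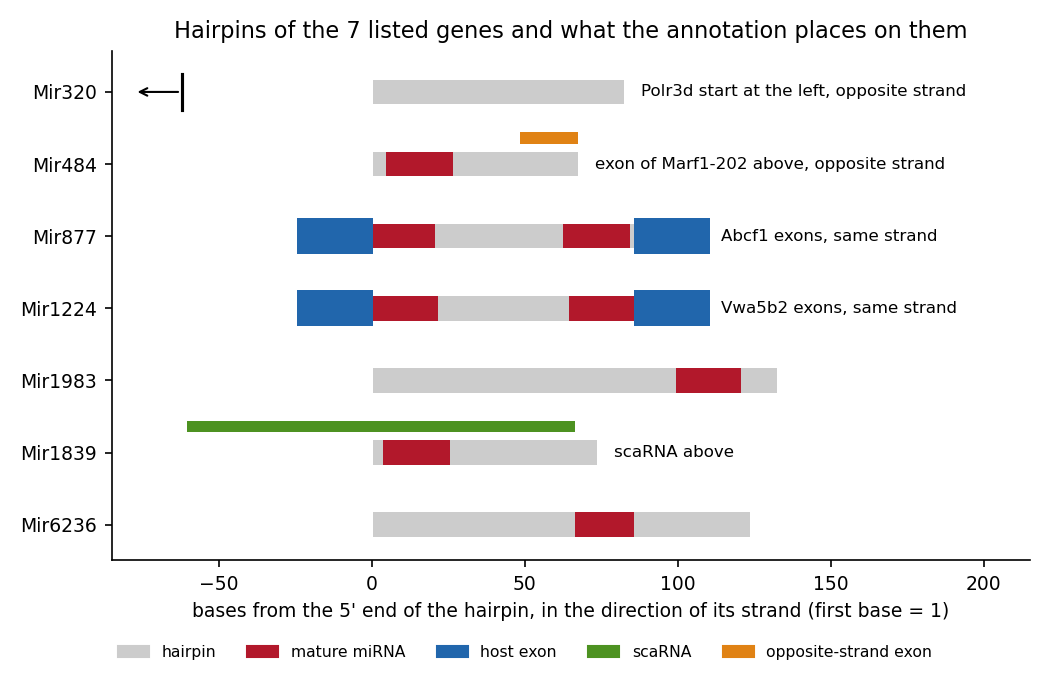
Annotated hairpins of the 7 genes (grey), drawn in bases from the 5′ end of each hairpin, with mature miRNAs in red, the nearest 25 bases of host exons in blue, the scaRNA in green and an exon on the opposite strand in orange. The hairpins of Mir877 and Mir1224, both 85 bases, fill the gap between 2 exons, and no mature miRNA is drawn for Mir320.

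Together the 6 counted genes took 1.07% of the counts in replicate 1 (95% Clopper-Pearson interval 1.06% to 1.08%) and 1.03% in replicate 2 (1.02% to 1.04%). These intervals treat each read as an independent molecule, which was not tested, and they cover no variation between pools. Mir1983 and Mir6236 together held 71.0% of the summed CPM of the 6 genes, the capped hairpins 26.8% and the mirtrons 2.26%. All these counts are per gene and do not tell reads of a mature miRNA from other reads of its hairpin.

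**Figure D2:**
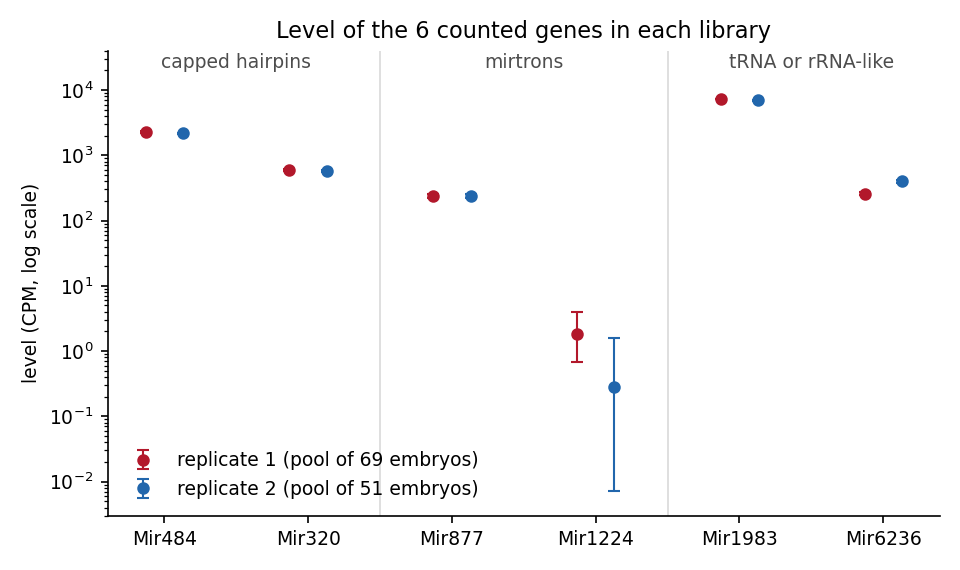
Level in CPM (log scale) of the 6 counted genes in replicate 1 (red) and replicate 2 (blue), with 95% Clopper-Pearson intervals. Mir1983 stood highest at 7321 and 6948 CPM and Mir1224 lowest at 1.84 and 0.280 CPM.

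Among the capped hairpins, Mir484 (ENSMUSG00000070074.1, mm10 chr16:14159626-14159692, plus strand) had 7427 counts (2281 CPM) in replicate 1 and 7774 counts (2175 CPM) in replicate 2. Its mean was 2228 ± 75.1 CPM (SD, n = 2). The annotation places no transcript around it on its own strand. On the opposite strand, 19 of its 67 bases overlap an exon of Marf1-202, a transcript of Marf1. The nearest annotated start of Nde1, a gene needed for the division of neural progenitors, lies 3649 bases downstream on the same strand.

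Mir320 (ENSMUSG00000065528.1, mm10 chr14:70443510-70443591, plus strand) had 1953 counts (600 CPM) in replicate 1 and 2059 counts (576 CPM) in replicate 2, with a mean of 588 ± 16.8 CPM (SD, n = 2). Its 82 bases overlap no annotated transcript of another gene. Its 5′ end lies 63 bases from the start of Polr3d-201, which runs the other way and codes for a subunit of RNA polymerase III. Both libraries thus gave close levels for each capped hairpin.

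By the annotation, 99 counted genes have a hairpin whose 5′ end lies within 100 bases of the start of a transcript of another gene on the same strand, and neither Mir484 nor Mir320 is among them. The highest of these by CPM were Mir126a with 94521 counts in replicate 1 and 114134 counts in replicate 2, and Mir30d with 21061 counts in replicate 1 and 20728 counts in replicate 2. Closeness to a start does not mark a hairpin as capped, and whether any of the 99 is capped was not tested. For a wider view of capped hairpins, the 13 genes of the Mir344 family were read as a comparison list. They summed to 27 counts in replicate 1 and 17 counts in replicate 2, and 7 of the 13 had no count in either library. The highest, Mir344f, had 10 counts in replicate 1 and 11 counts in replicate 2, and it alone of the family averaged at least 10 counts. The second, Mir344c, had 10 counts in replicate 1 and 2 counts in replicate 2. Reads with more than 1 place in the genome were not given to genes. How many of those came from the Mir344 family was not tested.

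Of the mirtrons, Mir877 (ENSMUSG00000077931.1, mm10 chr17:35960730-35960814, minus strand) had 777 counts (239 CPM) in replicate 1 and 840 counts (235 CPM) in replicate 2. Its mean was 237 ± 2.57 CPM (SD, n = 2). Its 85 bases are exactly intron 12 of Abcf1-201, a transcript with 23 exons from a gene whose protein acts in translation initiation.

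Mir1224 (ENSMUSG00000080669.1, mm10 chr16:20604452-20604536, plus strand) had 6 counts in replicate 1 and 1 count in replicate 2. These are 1.84 CPM (95% Clopper-Pearson interval 0.676 to 4.01) in replicate 1 and 0.280 CPM (0.00708 to 1.56) in replicate 2, so the intervals overlap. Its hairpin is exactly intron 22 of Vwa5b2-202. With a mean count of 3.5 it was too low for the test below. Both mirtrons thus match an intron to the base, but their levels were far apart.

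Read from the annotation alone, 29 counted genes, Mir877 and Mir1224 included, had both hairpin ends within 10 bases of the ends of an intron on their strand. Of these, 21 had at least 1 count and 8 averaged at least 10. Mir877 had the highest CPM of the 29, and Mir3102, in Arhgef17, followed with 542 counts in replicate 1 and 618 counts in replicate 2. On 22 of them the hairpin was the intron exactly.

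**Figure D3:**
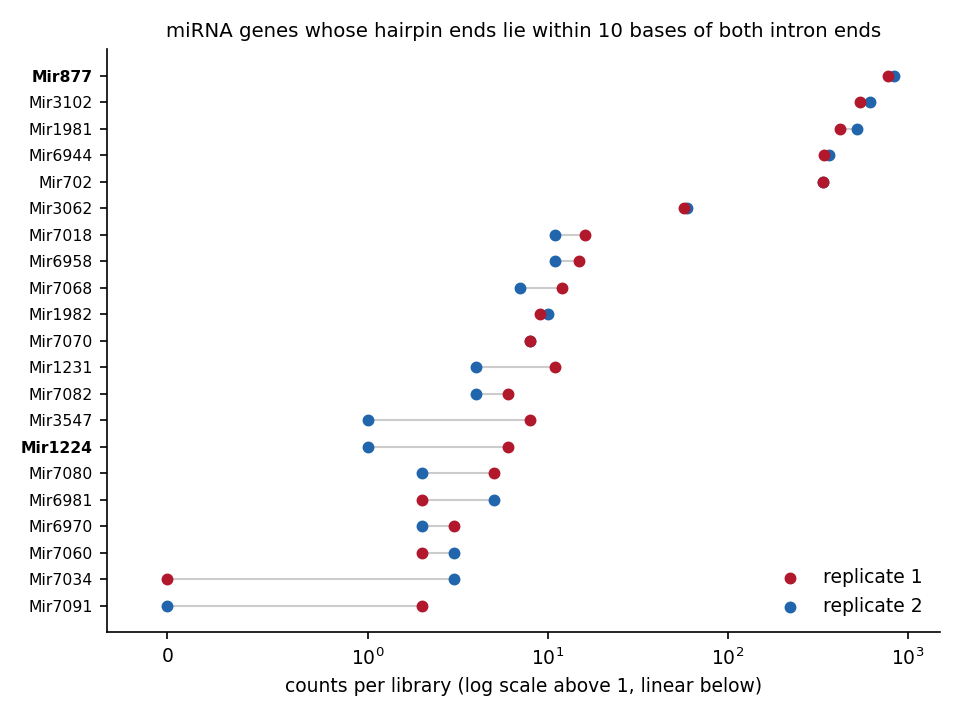
Counts of the 21 genes with a count among the 29 whose hairpin lies within 10 bases of both ends of an intron, in replicate 1 (red) and replicate 2 (blue), on an axis that is logarithmic above 1 and linear below. Mir877 leads with 777 and 840 counts, and Mir1224 stands low with 6 counts and 1 count.

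A comparison list held 5 known mirtrons or mirtrons with a tail, of which Mir1981, Mir702 and Mir1982 are also among the 29. Mir1981 led them with 420 counts in replicate 1 and 518 counts in replicate 2, followed by Mir702 with 336 counts in replicate 1 and 337 counts in replicate 2. Of the 5, 3 were tested between the libraries by the exact binomial test described below. Mir668, named after its values were seen, was called lower in replicate 1, while 23.7% of all 401 genes tested were called lower.

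Mir1983 (ENSMUSG00000088148.1, mm10 chr13:21896918-21897049, minus strand), the tRNA-like gene, had 23839 counts (7321 CPM) in replicate 1 and 24837 counts (6948 CPM) in replicate 2. Its mean was 7135 ± 264 CPM (SD, n = 2), which put it at place 36 of all counted genes by CPM. No annotated transcript of another gene overlaps its 132 bases. Nuclear tRNA genes are not in that annotation, so an overlap with a tRNA gene was not tested. The hairpin shows how the gene resembles a tRNA, with the mature miRNA in capitals.
Mir1983: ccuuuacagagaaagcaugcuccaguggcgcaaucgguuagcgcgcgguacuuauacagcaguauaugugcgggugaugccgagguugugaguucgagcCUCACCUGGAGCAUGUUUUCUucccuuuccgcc
Bases 19 to 25, GCUCCAG, have their reverse complement CUGGAGC at bases 105 to 111, as in the stem that joins both ends of a tRNA. Bases 26 to 37 match the tRNA A box, and bases 92 to 100 match the B box, searched as GUUCNANNC on the strand of the hairpin; these boxes are the promoter inside a tRNA gene. The mature miRNA covers bases 100 to 120, so 12 of its bases run to the end of that arm and 9 lie past it, with a UUUU run at bases 115 to 118. RNA polymerase III ends transcripts at such runs. Both boxes were found in 1 of the 1005 hairpins of the table, this one (0.0995%), and the B box alone in 19 (1.89%). A match of letters is a description and shows no use of a promoter. The counts are for the whole gene of 132 bases, so reads of the mature miRNA are not told apart from other pieces. How much of the level of Mir1983 is miR-1983 was not tested.

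Mir6236 (ENSMUSG00000098973.1, mm10 chr9:110281287-110281409, plus strand), listed as rRNA-like, had 844 counts (259 CPM) in replicate 1 and 1439 counts (403 CPM) in replicate 2. Its mean was 331 ± 101 CPM (SD, n = 2). Its 123 bases overlap no annotated transcript of another gene. The mature sequence was found in no other gene among 141767 annotated transcripts, with or without 1 mismatch. The 354 nuclear rRNA transcripts among them are at most 1849 bases long, so the long rRNAs were not covered by this search and the likeness to rRNA was not tested.

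Mir1839 had no row and is reported as not counted. Its miRNA gene (ENSMUSG00000104618.1, mm10 chr7:81529916-81529988, plus strand) shares its symbol with a scaRNA gene (ENSMUSG00000093107.1, chr7:81529855-81529981), scaRNAs being guides for the modification of spliceosomal RNAs. Of the 73 hairpin bases, 66 lie inside the 127-base scaRNA and 7 lie past it. Both lie in an exon of the long noncoding RNA transcript 2900076A07Rik-201, and in intron 3 of 2900076A07Rik-203 and 2900076A07Rik-207, transcripts of the same gene. No counted gene overlapped an annotated small RNA of another kind on its strand, and none of the 4 listed snoRNA-derived genes had a row. That search could not find overlaps with nuclear tRNA genes, which the annotation lacks.

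Levels of different genes were set side by side as CPM per 100 bases of hairpin. On that scale Mir1983 stood at 5405, Mir484 at 3325, Mir320 at 717, Mir877 at 279, Mir6236 at 269 and Mir1224 at 1.2. Mir1983 was 1.63-fold above Mir484, Mir484 was 4.64-fold above Mir320, and Mir320 was 2.57-fold above Mir877 in CPM per 100 bases. Mir877 and Mir6236 changed places between the libraries, with a ratio of 1.33 in replicate 1 and 0.845 in replicate 2, so their order was not settled. Not divided by length, Mir1983 was 3.20-fold above Mir484, Mir484 was 3.79-fold above Mir320, and Mir320 was 2.48-fold above Mir877 in CPM. The mature sequences have 19 to 22 bases, and the counts do not show where reads lie along a hairpin. Whether division by hairpin length suits these genes was thus not tested.

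**Figure D4:**
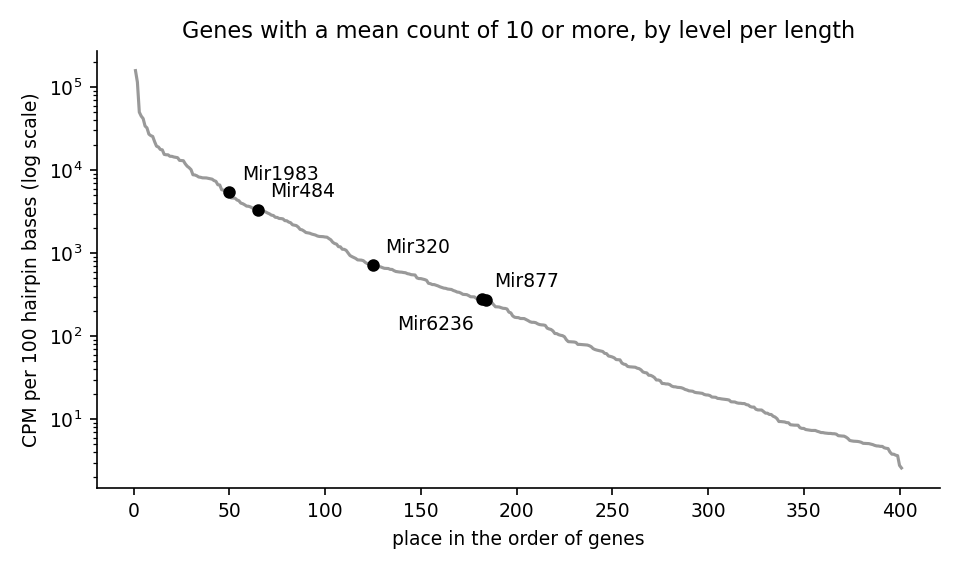
The 401 genes that averaged at least 10 counts, in order of CPM per 100 hairpin bases (log scale), with 5 of the genes described here marked. Mir1983 was at place 50, Mir484 at 65, Mir320 at 125, Mir877 at 182 and Mir6236 at 184.

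Over all 401 of these genes the median was 167 CPM per 100 bases. Each of the 5 marked genes stood above it, from the 54.1 percentile for Mir6236 to the 87.5 percentile for Mir1983. For Mir6236 and Mir877 this turned with the filter: among genes that averaged at least 100 counts they stood below the median, at the 32.1 and 32.8 percentiles. They passed a filter on the same counts, so the sixth counted gene, Mir1224, belongs beside them at 1.2 CPM per 100 bases.

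Whether the libraries differed was tested per gene with an exact binomial test, two-sided, of the split of its counts against the scaled library sizes, with Benjamini-Hochberg adjustment over the 401 genes and a threshold of 0.05. It takes in counting error but no variation between pools, so it speaks of these 2 libraries alone. By it, 43.4% of the 401 genes were called different, 19.7% higher and 23.7% lower in replicate 1. Of the 5 noncanonical genes tested, 2 were called, 1 higher and 1 lower, a share near that of all genes.

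Mir6236 was lower in replicate 1 by the larger margin, with a log2 ratio of -0.67 (0.630-fold, adjusted p = 3.0e-26 by the exact binomial test). Of the 401 genes, which were not matched to it by level, 9.48% had a log2 ratio at least as large in size. The share of reads that mapped outside all counted miRNA genes, on either strand, also differed. It was 5.98% in replicate 1 and 7.43% in replicate 2, and its part in this result was not tested.

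Mir1983 was higher in replicate 1 with a log2 ratio of 0.04 (1.03-fold, adjusted p = 0.0019 by the exact binomial test), and 85.3% of the genes had a ratio at least as large in size. That call was lost when the scaling used all genes (log2 ratio 0.02, adjusted p = 0.20 by the exact binomial test). Mir484, Mir320 and Mir877 were not called, with log2 ratios of 0.04, 0.03 and -0.01. Scaled to the totals alone, Mir484 was called too (log2 ratio 0.07, adjusted p = 0.0089 by the exact binomial test). Of the 5 ratios, 4 were thus smaller in size than the median of 0.17 over all genes tested.

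**Figure D5:**
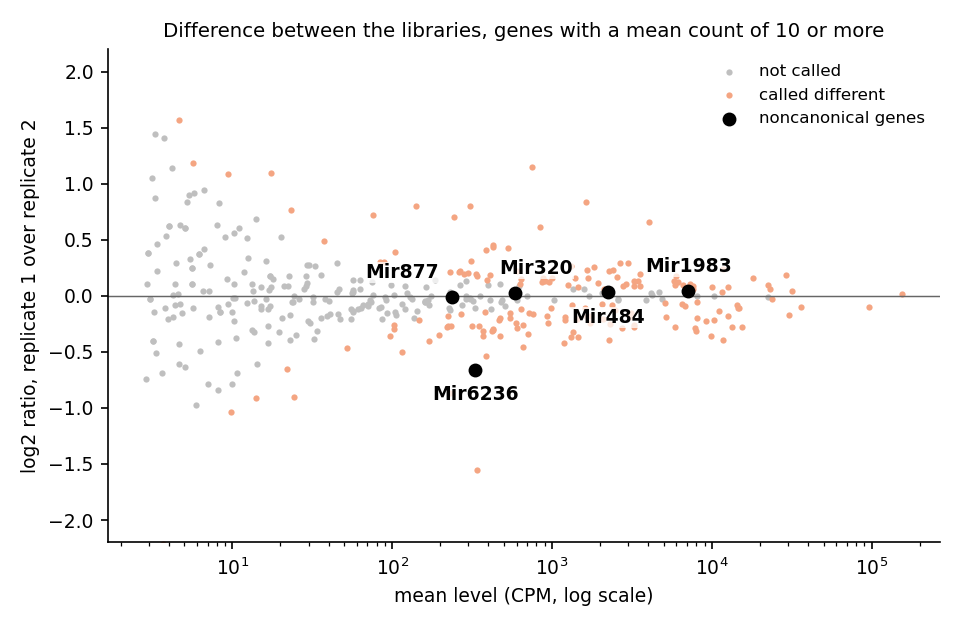
Log2 ratio of replicate 1 over replicate 2 against mean CPM (log scale) for genes that averaged at least 10 counts, called different in orange and not called in grey, with 5 noncanonical genes in black; 3 genes lie outside the axis limit of 2.2. Mir6236 lies at -0.67 and the other 4 lie between -0.01 and 0.04.

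The gene nearest to each in log2(CPM + 1) over both libraries, not divided by length, was Mir744 for Mir1983, Mir532 for Mir484, Mir455 for Mir320, Mir450b for Mir877 and Mir493 for Mir6236. The distance was 0.29 for Mir493 and Mir6236, against 0.07 to 0.11 for the other 4 pairs. Mir493 had 941 counts in replicate 1 and 1216 counts in replicate 2.

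Mir451a, which is cut by Ago2 in place of Dicer and is abundant in red blood cells, was read as a gene with another unusual route. It had 1958 counts (601 CPM) in replicate 1 and 2526 counts (707 CPM) in replicate 2, and was lower in replicate 1 with a log2 ratio of -0.26 (adjusted p = 5.4e-09 by the exact binomial test). The other listed markers of red blood cells were not called: Mir144 had 59.9 CPM in replicate 1 and 53.2 CPM in replicate 2, and Mir486 had 32.2 CPM in replicate 1 and 31.9 CPM in replicate 2.

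Counts on the strand opposite to the genes were close to 0 for the noncanonical genes. They were 0 of 34846 counts in replicate 1, which allows a share of up to 0.00861%, and 1 of 36951 counts in replicate 2 (0.00271%). The 401 genes that averaged at least 10 counts were also close to 0, with 0.0126% on the opposite strand in replicate 1 and 0.0109% in replicate 2. Over all genes, those with few or no counts on their own strand included, the opposite strand held 3.31% in replicate 1 and 3.62% in replicate 2.

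Reads with more than 1 place in the genome were tallied apart and not given to genes. They made up 30.1% of the reads in replicate 1 and 28.8% in replicate 2. How many came from the noncanonical genes, or from the markers below, those at 0 included, was not tested. Forebrain markers summed to 20050 CPM in replicate 1 and 17530 CPM in replicate 2, with 5 of 6 having a row. Most of this was Mir92b, with 19407 CPM in replicate 1 and 17048 CPM in replicate 2. Markers of Hox-bearing tissue had 245 and 309 CPM, of red blood cells 694 and 792 CPM (mostly Mir451a), of liver 80.2 and 82.0 CPM and of muscle 31.6 and 29.4 CPM, each in replicate 1 and replicate 2, with Mir1a-1 and Mir133a-1 of the muscle list at 0. The endothelial marker Mir126a had 29030 CPM in replicate 1 and 31930 CPM in replicate 2, and the part of any such cells in the levels above was not tested. In such bulk libraries, fewer cells of a type and less RNA per cell cannot be told apart.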

How the data were processed

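The authors deposited whole-number counts per miRNA gene, 1 table per library, on mm10 with annotation M4 per the file headers and notes. For the aligner, the trimming and the counter, nothing was given in these sources. Symbols came from GENCODE M21, which named 1894 of the 1973 identifiers. The column for the strand of the gene was used; CPM divides by its total.

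The library sizes in the test were scaled by TMM factors (edgeR 4.0.16) from genes averaging at least 10 counts, which were also the genes tested. Log2 ratios are replicate 1 over replicate 2 with 0.5 counts added. With 1 group of 2 libraries no model with replicate error could be fitted. Folding used ViennaRNA 2.7.2. Counts for 401 genes were also simulated with counting error only and no variation between pools. In them the test called 2.99% of unchanged genes, 64% at 1.25-fold and 81% at 2-fold. These shares thus do not give the rate of false calls between real pools.

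The named genes were the 7 listed genes, the nearest gene of each by level, the 2 highest of each comparison list or annotation class, and overlapping or host genes. Outside this rule, Mir412, Mir668, Mir144, Mir486, Mir1982, Mir92b, Mir1a-1, Mir133a-1 and the neighbouring genes Nde1 and Polr3d were named after their values or places were seen. The genes, lists and tests were chosen with earlier results of these data known. Mature sequences were searched in annotated transcripts in place of the genome that was planned. Alternatives changed the scaling, filter, strand, pseudocount and annotation distances.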

Additional observations from a re-analysis of the deposited data

How the results depend on the processing

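The summed share of the 6 counted genes was 1.05% over both libraries. It was 0.395% when divided by all reads of a library and 1.02% with counts on either strand. Leaving out 1 library gave 1.03% to 1.07%. The number of noncanonical genes called different was 2, and it was 1 with TMM factors from all genes, a setting chosen after seeing the data, since Mir1983 then missed the threshold. With library totals it was 3, since Mir484 passed it. Mir6236 was called lower in replicate 1 under all 7 alternatives, with log2 ratios from -0.69 to -0.63. The ratio of Mir877, never called, ran from -0.03 to 0.02. All genes called numbered 163 to 182. Their share was 43.6% of 401 genes with TMM factors from all genes and 44.1% of 401 with library totals. It moved more with the filter, to 22.5% of 739 genes with any count and 60.15% of 271 genes averaging at least 100. Without division by length, Mir6236 stood above Mir877. Annotated introns within 20 bases gave 48 genes in place of 29. Hairpins at a transcript start numbered 61 within 50 bases and 167 within 200 bases, in place of 99 within 100 bases. With every gene that had a count, Mir6236 and Mir877 stood above the median by level per 100 bases, Mir877 at the 75.2 percentile.

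No paired analysis was possible because there is 1 group of 2 libraries. Leaving out a library could not be run for the comparison between them, and the genome search was not run. With 2 pools, the spread between pools was not part of any test, and depth limits Mir1224, with 6 counts and 1 count.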
